A study of Mus musculus with 9 samples.

Results

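The Smad family comprises the 8 mouse genes Smad1, Smad2, Smad3, Smad4, Smad5, Smad6, Smad7 and Smad9, which were chosen by name and make up 8 of the 55704 genes in the expression table. Their mRNA levels were measured by bulk RNA-seq in cultured neural stem cells (NSCs), the self-renewing precursor cells of the adult brain, isolated from the subventricular zone (SVZ) of C57BL/6 mice of 8 to 9 weeks, with 2 female and 2 male mice pooled for an isolation. The cells were expanded for several passages and sampled as 3 groups of 3 libraries. bFGF/EGF-treated NSCs were kept with 20 ng/mL of each of the growth factors bFGF and EGF and collected at day 0. bFGF/BMP4-treated NSCs received 20 ng/mL bFGF and 20 ng/mL BMP4 for 6 days, and BMP4-treated NSCs received 20 ng/mL BMP4 alone for 6 days. Both of these groups were plated on poly-L-ornithine and laminin, which the methods do not state for the bFGF/EGF cells. The bFGF/EGF group was the control of both other groups, and the time in culture cannot be told apart from the factors in either comparison with it. Neither day 6 medium held EGF, and the BMP4 medium also lacked bFGF. In these comparisons the addition of BMP4 therefore cannot be told apart from the withdrawal of those factors. The labels do not say whether the replicates came from separate isolations, so the p-values measure only the spread between these libraries. BMP4-treated and bFGF/BMP4-treated NSCs differed in bFGF alone.

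Smad proteins carry the signal of the transforming growth factor-β (TGF-β) superfamily from the cell surface to the nucleus. Ligand-bound type I receptors phosphorylate receptor-regulated Smads, which are Smad1, Smad5 and Smad9 for bone morphogenetic proteins (BMPs) such as BMP4, and Smad2 and Smad3 for TGF-β and activin. The phosphorylated proteins join the common partner Smad4 and bind DNA, while the inhibitory Smads, Smad6 and Smad7, are themselves targets of the pathway and restrain it. In the adult SVZ, BMP signaling is known for its part in NSC quiescence and glial differentiation. RNA-seq reads the mRNA of these genes and not the phosphorylation through which the proteins are switched on.

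The deposited values were FPKM, fragment numbers scaled to the length of the gene in kilobases and to the total of the library, so levels can be set side by side between genes. Between libraries they are comparable only roughly, because the FPKM of all genes did not add up to the same total. This total was lowest in bFGF/EGF replicate 3 (256230) and highest in BMP4 replicate 2 (326302). The TPM scale, which sets it equal in all libraries, was among the alternatives. Between 15892854 and 17419822 fragments lay on genes in a library. All 8 Smad genes were among the 20207 genes tested, those with a mean of at least 0.1 FPKM over the 9 libraries. The summed level of the 5 NSC markers Nes, Sox2, Slc1a3, Fabp7 and Vim was 1672 to 1768 FPKM with bFGF/EGF, 654 to 758 with bFGF/BMP4 and 1407 to 1869 with BMP4. Among them, Sox2 stood at 167 ± 36 FPKM (SD, n = 3) with bFGF/EGF, 137 ± 12 with bFGF/BMP4 and 137 ± 13 with BMP4, Nes at 151 ± 6.4, 3.55 ± 0.52 and 15.8 ± 5.0, Slc1a3 at 73.6 ± 8.3, 130 ± 19 and 113 ± 8.5, and Vim at 677 ± 76, 167 ± 18 and 892 ± 130 FPKM in the same order. Summed over 5 genes each, microglial markers were at 0.411 to 0.876, 0.412 to 0.54 and 1.49 to 1.74 FPKM, and vascular and mural markers at 0.059 to 0.0829, 0.827 to 1.11 and 1.07 to 1.73 FPKM, again in that order. Of these, Aif1, Csf1r, Cdh5 and Cldn5 were at or under the level of 3 fragments in every group, whereas Tmem119 (0, 0.257 and 1.34 FPKM), Rgs5 (0.043, 0.621 and 0.949) and Pdgfrb (0.0143, 0.0707 and 0.385) were higher with BMP4 than with bFGF/EGF (adjusted p = 1.11e-05, 4.71e-05 and 0.000753, limma). The microglial marker P2ry12 went the other way, at 0.561, 0.153 and 0.225 FPKM. Its adjusted p was 0.00734 in bFGF/BMP4 and 0.0287 in BMP4 against bFGF/EGF (limma). The sum of 5 oligodendrocyte markers was 1.48 to 2.84 FPKM with bFGF/EGF, 5.53 to 6.92 with bFGF/BMP4 and 21.2 to 26.6 with BMP4, and Mog and Mag among them were at or under the level of 3 fragments throughout. The summed level of 5 ependymal markers was, in the same order, 8.23 to 12.6, 11.1 to 11.7 and 57.8 to 69.9 FPKM, with Tmem212 at or under 3 fragments in every group. That of 5 neuron markers was 25.1 to 31.9, 16.6 to 22.4 and 105 to 185 FPKM. The summed level of 5 astrocyte and quiescent NSC markers was 163 to 230 FPKM, 492 to 543 FPKM and 3531 to 4438 FPKM. Of these, Gfap (0.0926, 19.4 and 2566 FPKM), Aqp4, S100b and Aldoc were higher in both day 6 groups than in bFGF/EGF. Aldh1l1 was lower there, at 135, 24.2 and 58.1 FPKM (adjusted p = 9.31e-07 and 6.65e-05, limma). Aldh1l1 was the largest of the 5 in bFGF/EGF, whereas Gfap was the largest in BMP4. In bulk RNA, fewer cells of a type and less RNA per cell cannot be told apart, and the part of such shifts in the Smad values was not tested.

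The sequences before the starts of Smad6 and Smad9 are shown because both genes were at or near 0 in bFGF/EGF and well detected in both BMP4 conditions. Smad7 shared this pattern, but its window and those of Smad2 and Smad4 were not analysed here. Each run is the 250 bases before the outermost start annotated in GENCODE vM39 in genome build GRCm39, in the direction of transcription: chr9:63929794-63930043 on the minus strand for Smad6 and chr3:54662713-54662962 on the plus strand for Smad9. Capitals mark GGCGCC, a GC-rich palindrome that BMP-type Smads can bind.
Smad6: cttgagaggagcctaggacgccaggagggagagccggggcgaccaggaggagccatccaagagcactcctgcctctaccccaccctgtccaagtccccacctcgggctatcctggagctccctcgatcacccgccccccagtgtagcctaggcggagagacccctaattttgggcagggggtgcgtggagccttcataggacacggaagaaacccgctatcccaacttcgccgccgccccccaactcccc
Smad9: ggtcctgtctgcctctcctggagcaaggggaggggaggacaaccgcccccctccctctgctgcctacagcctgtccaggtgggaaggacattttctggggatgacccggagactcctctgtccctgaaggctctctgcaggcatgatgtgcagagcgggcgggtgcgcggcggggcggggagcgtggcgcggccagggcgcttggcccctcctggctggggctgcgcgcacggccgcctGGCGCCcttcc
The Smad9 window held 1 GGCGCC, whose bases lay 11 to 6 bases before the start, and the Smad6 window held none. GGCGCC was present in 7.85% of the 21757 windows of the same length before protein-coding genes, and in none of those before Smad1, Smad3 and Smad5. The other palindrome searched, GTCTAGAC, which Smad3 and Smad4 bind, was in 0.234% of all windows and in none of these 5. Both motifs read the same on both strands, do not overlap each other and were searched without mismatches. G and C made up 71.2% of the Smad9 window and 65.2% of the Smad6 window, against a median of 51.2% over all windows. These matches describe the letters only.

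The make-up of the family differed between bFGF/EGF and both BMP4 conditions. Relative to bFGF/EGF, the inhibitory genes Smad6 and Smad7 and the BMP-type gene Smad9 rose many-fold in both BMP4 conditions, Smad5 fell by less than 2-fold, and Smad1 and Smad4 did not pass the test. Smad3 fell more than 2-fold with BMP4 alone and was lower there than with bFGF/BMP4. In bFGF/BMP4 against bFGF/EGF, 3 of the 8 genes were higher and 2 were lower at an adjusted p of at most 0.05, where 25.0% of all tested genes were higher and 23.6% lower (limma on log2(FPKM + 0.1), Benjamini-Hochberg adjustment over 20207 genes). The 3 higher genes also changed at least 2-fold, as 30.6% of all tested genes did in either direction. In BMP4 against bFGF/EGF, 3 genes were higher and 2 lower, where 29.6% and 25.3% of all tested genes were, and 4 of the 8 changed at least 2-fold, against 36.6% of all tested genes. Both comparisons share the 3 bFGF/EGF libraries. In BMP4 against bFGF/BMP4, limma called 0 of the 8 genes higher, where 12.2% of all tested genes were, with 1 at an unadjusted p under 0.05 and 1 in limma-voom, and it called 2 lower, where 8.89% were. A change of at least 2-fold was called for 13.5% of all tested genes in that comparison and for 0 Smad genes, also at an unadjusted p under 0.05 and in limma-voom. With 8 genes, each share rests on few calls and lay near the background, so the counts are not read as a property of the family. The median log2 fold change of the 8 genes was -0.20, -0.12 and 0.05 in the 3 comparisons in the order given, against 0.06, 0.10 and 0.00 for all tested genes.

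**Figure D1:**
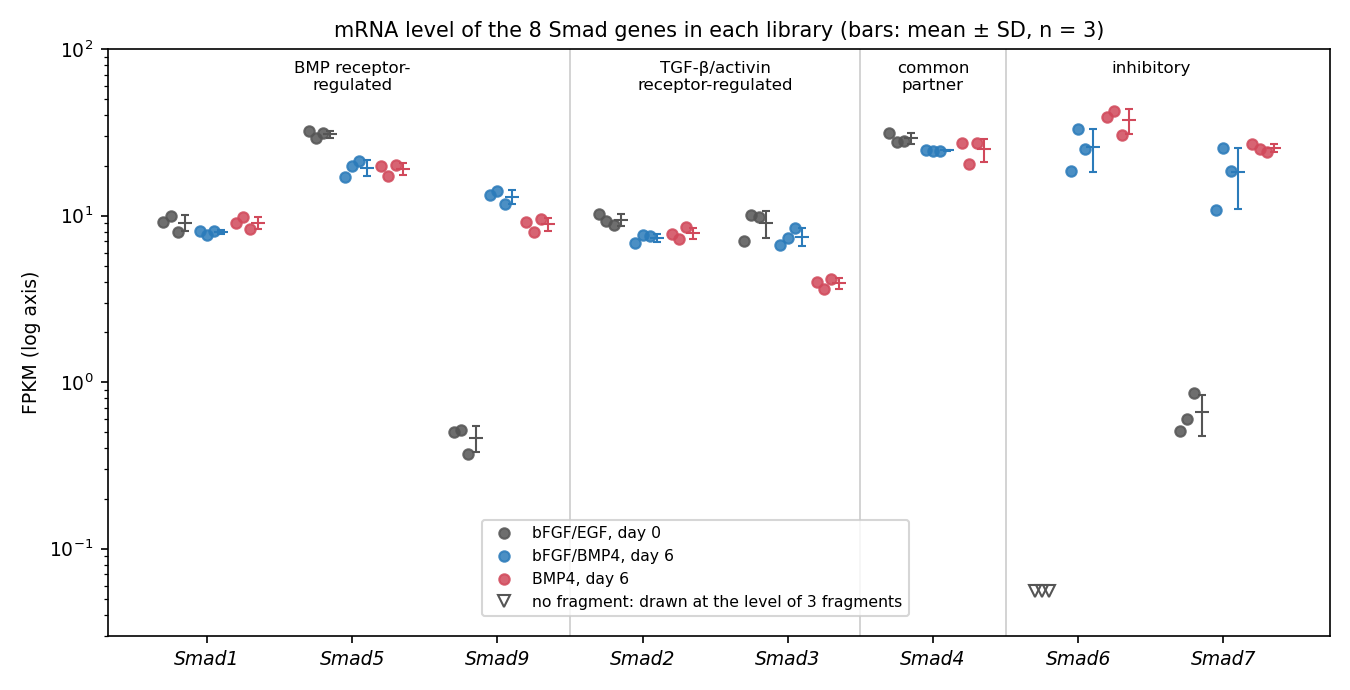
FPKM of each Smad gene in the 9 libraries on a log axis, grouped by role, with points for single libraries and bars for the mean ± SD of 3. Smad6 had no fragment in the 3 bFGF/EGF libraries (open triangles at 0.0557 FPKM, the level of 3 fragments), and Smad9 and Smad7 sat below 1 FPKM there, whereas the other 5 genes lay between 3.61 and 32.1 FPKM in every library.

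**Figure D2:**
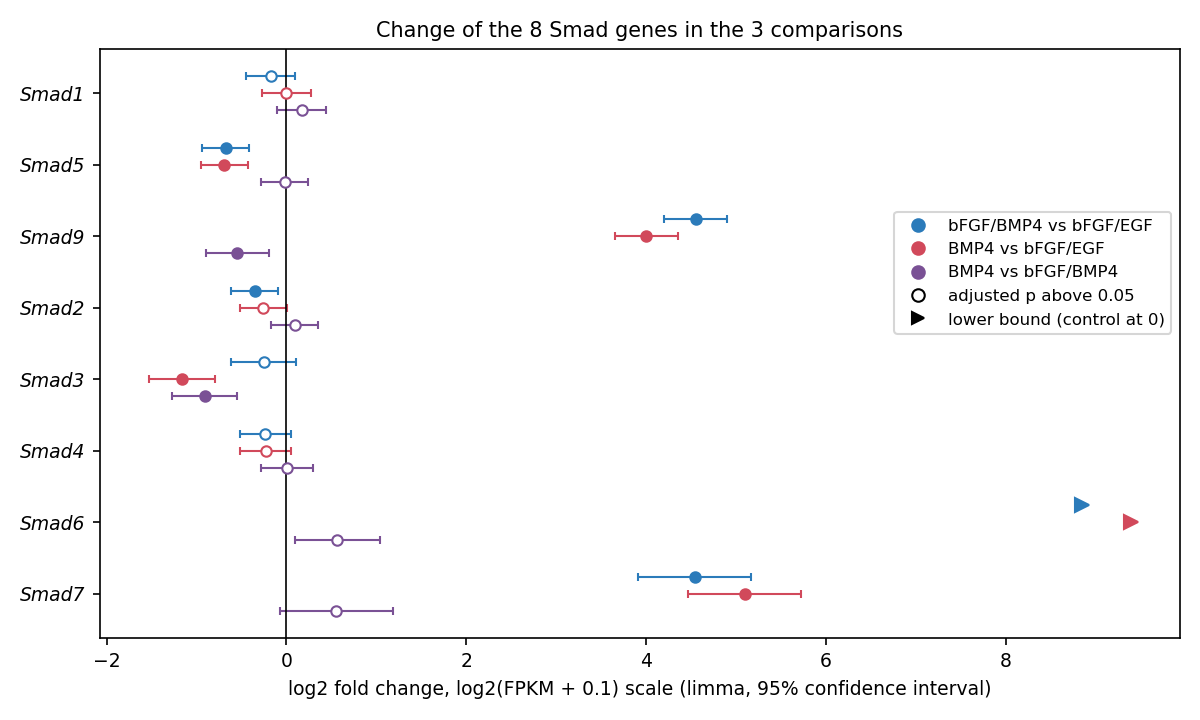
Log2 fold change of the 8 Smad genes in the 3 comparisons with 95% confidence intervals, filled where the adjusted p was at most 0.05. Points are limma values on the log2(FPKM + 0.1) scale. Triangles are lower bounds for Smad6, 8.85 and 9.39, set by 3 fragments per bFGF/EGF library. They are on another scale, the log2 ratio of mean FPKM to that level without the 0.1 added. Smad9, Smad6 and Smad7 stand far to the right in both comparisons with bFGF/EGF, and Smad3 is the gene furthest to the left in BMP4 against either group.

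Among the BMP-type receptor-regulated genes, Smad9 made the large change. Smad9 (chr3:54662963-54708680, GRCm39, plus strand) encodes the transducer also called Smad8. The bFGF/EGF libraries held 0.504, 0.518 and 0.369 FPKM of it, against 13.3, 14.1 and 11.8 FPKM in bFGF/BMP4 and 9.2, 7.97 and 9.5 FPKM in BMP4. The 3 groups did not overlap: the lowest day 6 library held 693 fragments of this gene, and the highest bFGF/EGF library 46. Smad9 rose by 4.55 ± 0.16 on the log2(FPKM + 0.1) scale (SE, adjusted p = 4.44e-08, limma) in bFGF/BMP4 and by 4.0 ± 0.16 (adjusted p = 5.61e-08) in BMP4, both against bFGF/EGF. The mean FPKM was 28.1 times and 19.2 times that of bFGF/EGF. Against bFGF/BMP4, Smad9 was lower in all 3 BMP4 libraries, with a log2 fold change of -0.55 ± 0.16 and an adjusted p of 0.0323. This last call was lost when any of the 6 libraries of these 2 groups was left out, with adjusted p between 0.0521 (without bFGF/BMP4 replicate 3) and 0.128 (without bFGF/BMP4 replicate 2), and the log2 fold change stayed between -0.63 and -0.47 over 18 alternatives.

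Smad5 (chr13:56850797-56890190, plus strand) was the most abundant receptor-regulated Smad in every group and was lower in both day 6 groups than in bFGF/EGF. Its levels were 32.1, 29.1 and 31.5 FPKM in bFGF/EGF, 17.0, 20.0 and 21.2 FPKM in bFGF/BMP4, and 19.8, 17.3 and 20.2 FPKM in BMP4. All 6 day 6 libraries lay below all 3 bFGF/EGF libraries, while the 2 day 6 groups overlapped. The log2 fold change was -0.67 ± 0.12 (adjusted p = 0.000943, limma) in bFGF/BMP4 and -0.69 ± 0.12 (adjusted p = 0.000636) in BMP4 against bFGF/EGF, and both calls held in all 18 alternatives. Between the day 6 groups the difference was -0.02, with a 95% confidence interval of -0.28 to 0.24. Short RNA genes annotated inside Smad5 on the same strand were at 0.97 FPKM or less.

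Smad1 (chr8:80065023-80126168, minus strand), the third BMP-type transducer, did not pass the test in any comparison. Its levels were 9.14, 10.0 and 7.98 FPKM in bFGF/EGF, 8.13, 7.70 and 8.11 FPKM in bFGF/BMP4, and 9.02, 9.77 and 8.27 FPKM in BMP4. The bFGF/EGF libraries overlapped both other groups, while the BMP4 libraries lay just above those of bFGF/BMP4 (log2 fold change 0.17 ± 0.12, adjusted p = 0.386, limma). The 95% confidence interval of the log2 fold change was -0.45 to 0.10 in bFGF/BMP4 and -0.27 to 0.27 in BMP4 against bFGF/EGF, so a 2-fold change lay outside both. Summed over Smad1, Smad5 and Smad9, the BMP-type genes amounted to 40.4 ± 1.2 FPKM with bFGF/EGF, 40.4 ± 1.7 with bFGF/BMP4 and 37.0 ± 1.7 with BMP4 (SD, n = 3). Within this sum the ratio of Smad9 to Smad1 plus Smad5 went from 0.0116 ± 0.0020 in bFGF/EGF to 0.48 ± 0.069 in bFGF/BMP4 and 0.316 ± 0.020 in BMP4, and the libraries of the 3 groups did not overlap.

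In the TGF-β and activin branch, Smad3 was lower with BMP4 alone than in either other group, and Smad2 moved less. Smad3 (chr9:63554049-63665476, minus strand), a transducer that binds DNA directly, was at 7.09, 10.1 and 9.88 FPKM in bFGF/EGF, at 6.68, 7.35 and 8.46 FPKM in bFGF/BMP4, and at 4.02, 3.61 and 4.17 FPKM in BMP4. The BMP4 libraries all lay below the 6 others, and the bFGF/EGF and bFGF/BMP4 libraries overlapped. Smad3 fell by 1.16 on the log2 scale in BMP4 against bFGF/EGF (SE 0.16, adjusted p = 0.000184, limma) and by 0.91 against bFGF/BMP4 (SE 0.16, adjusted p = 0.00281), and both calls held in all 18 alternatives. In bFGF/BMP4 against bFGF/EGF the log2 fold change was -0.25 (95% confidence interval -0.62 to 0.11, adjusted p = 0.231). Smad3 was the only family member whose level with BMP4 was more than 2-fold below that of bFGF/EGF.

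Smad2, the other transducer of this branch, lies on chromosome 18. Its levels were 10.3, 9.26 and 8.75 FPKM in bFGF/EGF, 6.84, 7.67 and 7.57 FPKM in bFGF/BMP4, and 7.80, 7.29 and 8.51 FPKM in BMP4. Every day 6 library was below every bFGF/EGF library. The fall passed the test in bFGF/BMP4 (log2 fold change -0.35 ± 0.12, adjusted p = 0.031, limma), while in BMP4 the log2 fold change was -0.26 ± 0.12 with an adjusted p of 0.0884. Without bFGF/EGF replicate 1 the adjusted p in bFGF/BMP4 was 0.112, without bFGF/BMP4 replicate 1 it was 0.0963, without replicate 2 of that group 0.0586 and without replicate 3 of that group 0.0606. The ratio of Smad3 to Smad2 was 0.97 ± 0.24 with bFGF/EGF, 1.02 ± 0.087 with bFGF/BMP4 and 0.5 ± 0.014 with BMP4, and its BMP4 libraries lay below all others.

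Smad4, the common partner of both branches, also lies on chromosome 18 and was among the more abundant members in every group. Its levels were 31.6, 27.6 and 28.2 FPKM in bFGF/EGF, 24.9, 24.6 and 24.6 FPKM in bFGF/BMP4, and 27.2, 20.5 and 27.2 FPKM in BMP4. All day 6 libraries were below the lowest bFGF/EGF library, but the log2 fold changes of -0.24 and -0.23 had adjusted p of 0.16 and 0.156. Without BMP4 replicate 2, the low library of its group, the adjusted p of bFGF/BMP4 against bFGF/EGF was 0.0496. A pseudogene and a long noncoding RNA annotated on the opposite strand of Smad4 were at 0.44 FPKM or less, and whether the authors counted by strand is not given in the sources used here.

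The inhibitory genes showed the largest rises of the family. Smad6 (chr9:63860341-63929793, minus strand) acts mainly on the BMP branch, in part at the type I receptors. No fragment of it was counted in the 3 bFGF/EGF libraries, whereas bFGF/BMP4 held 18.6, 33.2 and 25.3 FPKM and BMP4 held 39.4, 42.4 and 30.4 FPKM. In fragments this was 958 to 1630 in bFGF/BMP4 and 1606 to 2201 in BMP4. Taking 3 fragments per bFGF/EGF library as the upper limit that a count of 0 allows, which corresponds to 0.0557 FPKM and covers counting error only, Smad6 was at least 461-fold higher in bFGF/BMP4 and at least 671-fold higher in BMP4. Both changes passed the test (adjusted p = 1.08e-08 and 4.82e-09, limma). Smad6 was 1 of 7 genes in the whole table with no fragment in bFGF/EGF and a mean of at least 10 FPKM over the 6 day 6 libraries.

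Smad7 lies on chromosome 18 and blocks both branches, in part by bringing ubiquitin ligases to the receptors. It was at 0.507, 0.601 and 0.864 FPKM in bFGF/EGF, at 10.8, 25.4 and 18.6 FPKM in bFGF/BMP4, and at 26.9, 25.0 and 24.2 FPKM in BMP4. Its rise was 4.54 ± 0.28 on the log2 scale in bFGF/BMP4 (adjusted p = 1.26e-06, limma) and 5.10 ± 0.28 in BMP4 (adjusted p = 4.56e-07), and the mean FPKM was 27.7 times and 38.6 times that of bFGF/EGF. Between the day 6 groups neither inhibitory gene passed the test. The log2 fold change of BMP4 against bFGF/BMP4 was 0.57 ± 0.21 for Smad6 (adjusted p = 0.0897), with overlapping libraries. For Smad7 it was 0.56 ± 0.28 (adjusted p = 0.211), also with overlapping libraries, since bFGF/BMP4 replicate 2 reached 25.4 FPKM. Without that replicate the Smad6 difference was 0.77 with an adjusted p of 0.0348. In limma-voom it was 0.59 with an adjusted p of 0.0271. The bFGF/BMP4 replicates stood in the same order for both genes, replicate 1 lowest and replicate 2 highest, and the ratio of Smad6 to Smad7 was 1.46 ± 0.23 in bFGF/BMP4 and 1.47 ± 0.22 in BMP4.

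Smad3 and Smad6, which changed in opposite directions with BMP4 alone, are neighbours on chromosome 9. Both are transcribed from the minus strand with 194.9 kb between them, and GENCODE vM39 places no protein-coding gene in that interval. Smad2, Smad4 and Smad7 share chromosome 18.

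The order of the members changed accordingly. In bFGF/EGF, Smad5 (30.9 ± 1.6 FPKM) and Smad4 (29.1 ± 2.2) overlapped at the top, Smad2, Smad1 and Smad3 overlapped at 9.43 ± 0.79, 9.05 ± 1.0 and 9.03 ± 1.7 FPKM, and Smad7 (0.658 ± 0.18) and Smad9 (0.464 ± 0.082) overlapped below 1 FPKM. In bFGF/BMP4, Smad6 (25.7 ± 7.3) overlapped Smad4 (24.7 ± 0.21), followed by Smad5 (19.4 ± 2.1), Smad7 (18.2 ± 7.3) and Smad9 (13.0 ± 1.2). Smad7, at 10.8 to 25.4 FPKM, overlapped each of the others just named, whereas Smad9 lay below Smad5 without overlap. At the bottom of that group, Smad3 (7.5 ± 0.9) overlapped both Smad1 (7.98 ± 0.24) and Smad2 (7.36 ± 0.45), and Smad1 lay just above Smad2. In BMP4, Smad6 (37.4 ± 6.3) was above Smad7 (25.4 ± 1.4) and Smad4 (25.0 ± 3.9) without overlap, and Smad3 (3.93 ± 0.29) was the lowest member, below Smad2 (7.87 ± 0.61) without overlap.

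As a share of the summed FPKM of the family, the inhibitory pair went from 0.744 ± 0.22% in bFGF/EGF to 34.8 ± 7.1% in bFGF/BMP4 and 45.9 ± 4.6% in BMP4. The BMP-type genes went from 45.6 ± 0.15% to 32.9 ± 3.2% and 27.1 ± 1.3%, the TGF-β-type genes from 20.9 ± 1.6% to 12.1 ± 1.2% and 8.65 ± 0.80%, and Smad4 from 32.8 ± 1.6% to 20.2 ± 3.0% and 18.3 ± 2.7%. The summed FPKM of the family was 88.6 ± 2.3, 124 ± 17 and 137 ± 6.0. The ratio of inhibitory to receptor-regulated Smad FPKM was 0.0112 ± 0.0032 in bFGF/EGF and 0.788 ± 0.23 in bFGF/BMP4, and it exceeded 1 in all 3 BMP4 libraries (1.33, 1.46 and 1.08) and in 1 of the bFGF/BMP4 libraries (1.03). Shares within a library are bound to each other, and the FPKM of Smad4 passed the test in none of the 3 comparisons.

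**Figure D3:**
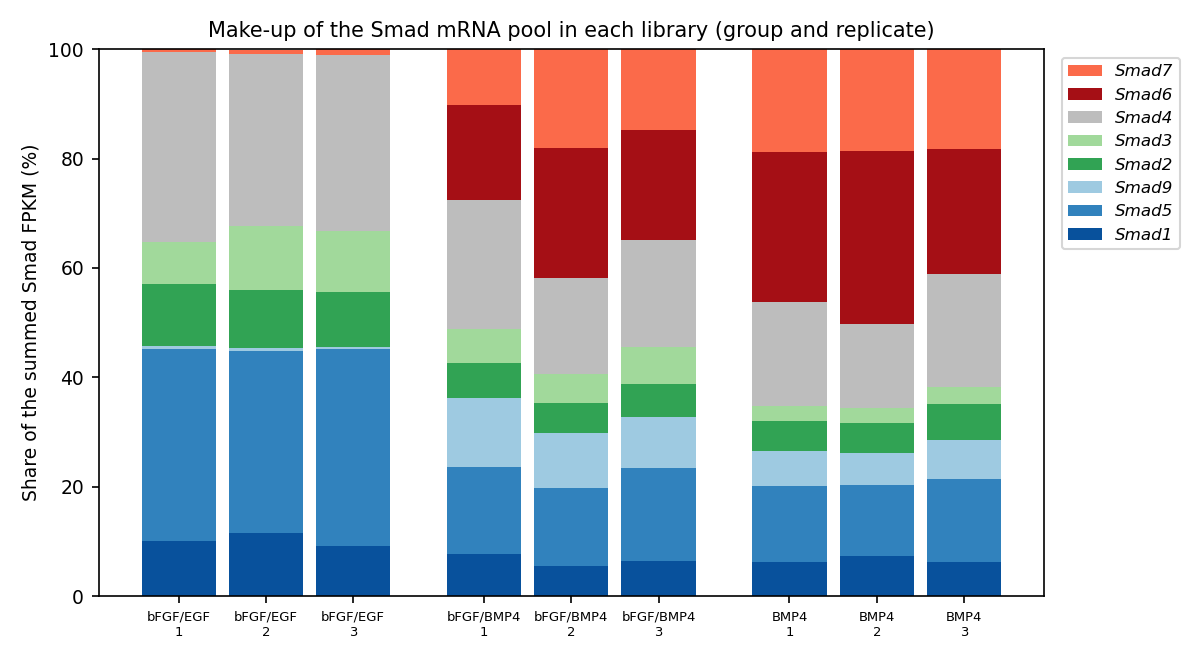
Share of each Smad gene in the summed FPKM of the family, in percent, stacked for each of the 9 libraries. Smad6 and Smad7 together fill 0.556 to 0.987% of the bFGF/EGF bars, 27.6 to 41.9% of the bFGF/BMP4 bars and 41.2 to 50.3% of the BMP4 bars.

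Beyond the family itself, 40 regulators of Smad signaling in 8 role groups were examined, of which 39 were tested. In bFGF/BMP4 against bFGF/EGF, 10 were higher and 9 lower; in BMP4 against bFGF/EGF, 9 were higher and 12 lower; and in BMP4 against bFGF/BMP4, 5 were higher and 4 lower. Over all tested genes 25.0% were higher and 23.6% lower in the first of these comparisons, 29.6% and 25.3% in the next, and 12.2% and 8.89% in the last, so the regulators' shares lay near the background. Their median log2 fold changes were -0.03, -0.08 and -0.10, against 0.06, 0.10 and 0.00 for all tested genes. In the same order, 20, 18 and 30 of the 39 did not pass the test. Leaving out single libraries moved the 12 lower calls in BMP4 against bFGF/EGF to between 7 (without bFGF/EGF replicate 1) and 11, and the 4 lower calls in BMP4 against bFGF/BMP4 to 1 without bFGF/BMP4 replicate 3 or BMP4 replicate 1 and to 2 without replicate 2 of either of these groups; the 5 higher calls there became 2 without bFGF/BMP4 replicate 3 and 3 without any other single library of day 6.

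Among 7 corepressors, which keep Smad complexes from activating transcription, Skil (encoding SnoN) had the largest log2 fold change in any comparison. It was at 2.41, 1.74 and 2.48 FPKM in bFGF/EGF, at 6.17, 21.4 and 19.6 FPKM in bFGF/BMP4, and at 5.86, 7.55 and 7.25 FPKM in BMP4. Skil rose by 2.60 ± 0.40 (adjusted p = 0.000436, limma) in bFGF/BMP4 and by 1.61 ± 0.40 (adjusted p = 0.00654) in BMP4, both against bFGF/EGF. Between the day 6 groups the log2 fold change was -0.99 with an adjusted p of 0.115, and without bFGF/BMP4 replicate 1 it was -1.57 with an adjusted p of 0.00065. In limma-voom it was -0.98 with an adjusted p of 0.0499. Of the 3 tested coactivators and DNA-binding partners, Zfp423, a zinc-finger partner of BMP-type Smads, rose from 3.70 ± 0.37 FPKM with bFGF/EGF to 46.3 ± 6.0 with bFGF/BMP4 and 64.8 ± 9.2 with BMP4 (log2 fold changes 3.61 and 4.09, adjusted p = 9.43e-08 and 2.98e-08). Between the day 6 groups Zfp423 had a log2 fold change of 0.48 (adjusted p = 0.041), a call that was lost in 10 of 18 alternatives, among them those without bFGF/EGF replicate 3 (0.0532), without bFGF/BMP4 replicate 1, 2 or 3 (0.135, 0.085 and 0.0516) and without BMP4 replicate 1 or 3 (0.114 and 0.14).

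Nedd4l, a ubiquitin ligase that targets activated Smad2 and Smad3, was at 2.00, 1.87 and 1.66 FPKM in bFGF/EGF, at 1.86, 1.58 and 1.51 FPKM in bFGF/BMP4, and at 3.88, 2.94 and 3.87 FPKM in BMP4. It was the only one of 9 ubiquitin ligases and deubiquitinases called between the day 6 groups (log2 fold change 1.06 ± 0.18, adjusted p = 0.00184, limma). Zfyve16, an endosomal anchor protein gene, was at 2.18 ± 0.86, 4.84 ± 0.50 and 5.95 ± 0.61 FPKM in bFGF/EGF, bFGF/BMP4 and BMP4, and rose in both comparisons with bFGF/EGF (adjusted p = 0.00444 and 0.000994). Ctdsp1, a small C-terminal domain phosphatase gene, rose by 0.87 ± 0.16 in bFGF/BMP4 (adjusted p = 0.00124) and by 0.73 ± 0.16 in BMP4 (adjusted p = 0.00309). In the group of nuclear transport and nuclear envelope genes, 4 of 5 were called lower in BMP4 against bFGF/EGF, where 25.3% of all tested genes were, but Ipo8 and Lemd3 among them lost the call without bFGF/EGF replicate 1 (adjusted p = 0.0767 and 0.124) or replicate 3 (0.0743 and 0.0818) and without BMP4 replicate 1 (0.0649 and 0.0974), Ipo8 also without BMP4 replicate 2 (0.0871), and Lemd3 passed in 9 of 18 alternatives. The nuclear exporter Xpo4 fell the most, from 7.99 ± 1.1 FPKM to 3.76 ± 0.45 (log2 fold change -1.06 ± 0.18, adjusted p = 0.000596). Mapk3, which encodes the linker kinase ERK1, was at 32.3 ± 5.2, 42.8 ± 0.90 and 70.5 ± 8.4 FPKM, and was higher in BMP4 than in bFGF/BMP4 (log2 fold change 0.71 ± 0.14, adjusted p = 0.00488).

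Of the 3 membrane-bound inhibitors, Ldlrad4, which keeps receptor-regulated Smads from TGF-β receptors, was at 1.64, 1.40 and 1.34 FPKM in bFGF/EGF, at 2.51, 4.85 and 5.06 FPKM in bFGF/BMP4, and at 1.75, 1.02 and 2.54 FPKM in BMP4. It was called lower in BMP4 than in bFGF/BMP4 (log2 fold change -1.20 ± 0.34, adjusted p = 0.0312, limma), but the highest BMP4 library lay above the lowest bFGF/BMP4 library. Leaving out bFGF/BMP4 replicate 2 gave an adjusted p of 0.112, leaving out bFGF/BMP4 replicate 3 gave 0.117, and leaving out BMP4 replicate 1 or 2 gave 0.0718 or 0.0953. Pmepa1, whose product acts on the same step, was at 3.28, 3.91 and 1.96 FPKM in bFGF/EGF, at 1.93, 27.7 and 25.4 FPKM in bFGF/BMP4, and at 6.52, 13.7 and 11.9 FPKM in BMP4. With all libraries it passed the test in no comparison, the log2 fold change in bFGF/BMP4 against bFGF/EGF being 1.90 ± 0.85 (adjusted p = 0.0908). Without bFGF/BMP4 replicate 1 that value was 3.14 with an adjusted p of 0.000151, that of BMP4 against bFGF/EGF had an adjusted p of 0.00131, and that of BMP4 against bFGF/BMP4 was -1.37 with an adjusted p of 0.025.

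**Figure D4:**
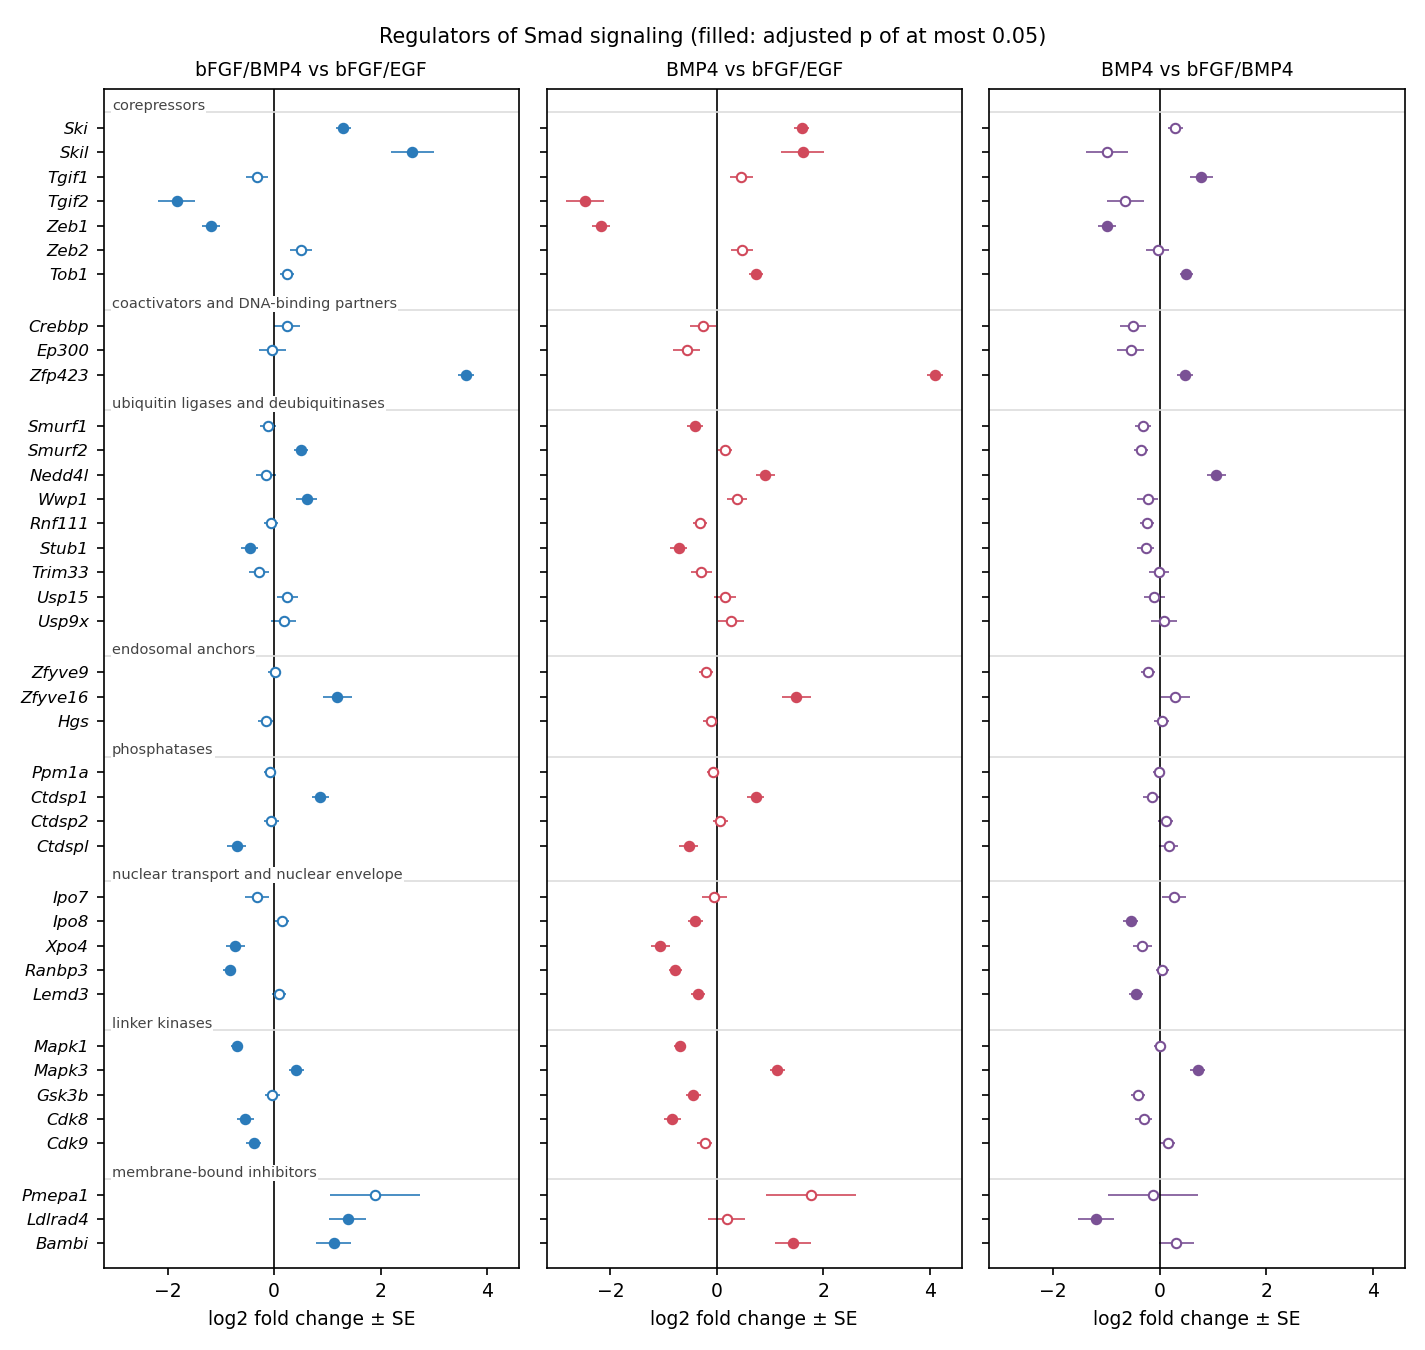
Log2 fold change ± SE of 39 regulators of Smad signaling by role group in the 3 comparisons, with filled points where the adjusted p was at most 0.05. Zfp423 is the gene furthest to the right in both comparisons with bFGF/EGF (3.61 and 4.09), Pmepa1 has the widest error bar (SE 0.85), and 30 of the 39 genes are unfilled in BMP4 against bFGF/BMP4.

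Upstream of the Smads, Bmpr1a, a type I receptor for BMPs, measured 23.2 ± 5.1 FPKM with bFGF/EGF, 96.8 ± 9.1 with bFGF/BMP4 and 124 ± 2.6 with BMP4, and rose in both comparisons with bFGF/EGF (adjusted p = 6.14e-06 and 1.49e-06, limma). Of the TGF-β and activin type I receptors, Acvr1c was called lower in BMP4 than in bFGF/BMP4 (log2 fold change -1.63 ± 0.39, adjusted p = 0.0145), at 0.253 to 0.489 FPKM in bFGF/BMP4 and at most 0.0664 FPKM in BMP4, and without BMP4 replicate 1 the adjusted p was 0.052. In bFGF/EGF it was at most 0.0127 FPKM, below bFGF/BMP4 (log2 fold change of bFGF/BMP4 2.0 ± 0.39, adjusted p = 0.00203). Tgfbr1, the TGF-β type I receptor gene, chosen after its values were seen, fell from 9.01 ± 2.3 FPKM with bFGF/EGF to 3.58 ± 0.38 with bFGF/BMP4 (adjusted p = 0.000341) and 2.93 ± 0.13 with BMP4 (adjusted p = 7.17e-05), in all 18 alternatives.

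Downstream, 8 of 8 known target genes of BMP-type Smads were higher in both comparisons with bFGF/EGF, each at least 2-fold, where 25.0% and 29.6% of all tested genes were higher and 30.6% and 36.6% changed at least 2-fold in either direction. Their median log2 fold change was 2.77 with bFGF/BMP4 and 3.54 with BMP4, against 0.06 and 0.10 for all tested genes. Id4, an inhibitor of basic helix-loop-helix factors, went from 0.936 ± 0.16 FPKM with bFGF/EGF to 53.2 ± 6.7 with bFGF/BMP4 and 132 ± 15 with BMP4. Between the day 6 groups 2 of these 8 were higher in BMP4, Id4 (log2 fold change 1.31 ± 0.15, adjusted p = 0.000223) and its relative Id3 (1.43 ± 0.29, adjusted p = 0.00617). Of 7 known targets of TGF-β-type Smads, 6 were tested, and 4 were higher in BMP4 than in bFGF/BMP4, each at least 2-fold, where 12.2% of all tested genes were higher and 13.5% changed at least 2-fold in either direction. Ccn2, a matricellular protein gene, was at 81.2, 143 and 60.5 FPKM in BMP4 and at 6.5, 23.4 and 15.8 FPKM in bFGF/BMP4 (log2 fold change 2.72 ± 0.49, adjusted p = 0.00296). Thbs1, encoding thrombospondin 1, was at 16.5 ± 3.1 against 3.39 ± 0.99 FPKM (2.28 ± 0.32, adjusted p = 0.000638), and Cdkn2b, a cell cycle inhibitor gene, at 47.6 ± 10 against 15.6 ± 1.1 FPKM (1.59 ± 0.25, adjusted p = 0.00134). Tgfbi, the remaining gene called higher, was at 0 in the 3 bFGF/BMP4 libraries and at 0.209 to 0.425 FPKM in BMP4, with at most 26 fragments in a library. The other 2 tested targets did not pass between the day 6 groups: Fn1 (log2 fold change 0.04, adjusted p = 0.919, limma) and Col1a1 (0.90, adjusted p = 0.0995). The 4 called targets were higher in the group in which Smad3 was lower, and a link to Smad3 was not tested.

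For each member the 2 protein-coding genes with the most similar course over the 9 libraries were found among 11213 genes with a mean of at least 1 FPKM, by the root mean square difference of centred log2 values. Nearest to Smad6 were Lyz2 (difference 0.415), which encodes lysozyme and stood at 0, 13.8 and 34.8 FPKM with bFGF/EGF, bFGF/BMP4 and BMP4, and Nog (0.421), which encodes the secreted BMP antagonist Noggin and was at 0.434, 246 and 213 FPKM. Nearest to Smad7 were Mmd2 (0.341) and Lrrc75b (0.399). Smad9 lay closest to Rgs9 (0.131), a regulator of G protein signaling at 0.625, 16.3 and 11.7 FPKM, and to Abat (0.23), which encodes GABA transaminase. Smad3 lay closest to Tbkbp1 (0.092) and Agap2 (0.134). For the other members the nearest genes were Eif2s3x and Vopp1 for Smad5, Napa and Rnf185 for Smad1, Xxylt1 and Uvrag for Smad2, and Dclre1a and Wdr48 for Smad4, at differences of 0.052 to 0.083. Within the family the closest pair was Smad2 and Smad4 (0.105), and Smad9 lay closer to Smad7 (0.653) than to the other BMP-type genes Smad1 (2.08) and Smad5 (2.35).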

How the data were processed

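Bulk RNA-seq covered 9 libraries of mouse NSCs in 3 groups of 3. Per the submitters' processing notes and the study's methods, reads were cleaned with fastp 0.19.7, aligned to mm39 with HISAT2 2.0.5 and counted with featureCounts 1.5.0-p3. The authors deposited FPKM values for 55704 genes and used DESeq2 for their own tests; the program that computed FPKM, the annotation release and the strand setting are not given in the sources used here. Dividing each FPKM value by its gene's and its library's scaling factor gave whole numbers, so fragment numbers could be rebuilt, within 0.02 of a whole number, for the 30860 genes above 0. They were used as the smallest whole numbers that fit, for depth, for the limit of 3 fragments and for limma-voom. No replicate pair agreed within sampling noise, with a chi-square per gene of 7.59 to 41.83 between libraries of a group.

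FPKM was tested with limma 3.58.1 in R 4.3.3 with a trend on log2(FPKM + 0.1), because the deposited values are not counts, with all 9 libraries in the fit and genes with a mean of at least 0.1 FPKM, and the steps were tested on simulated data. A fold change on this scale understates the change of low genes. An adjusted p of at most 0.05 was the threshold. Members, lists and tests were chosen with earlier results of these data known. Besides the 8 members, the genes named were the list genes called with a fold change of at least 2 in BMP4 against bFGF/BMP4, the gene with the largest log2 fold change in any comparison in each role group, and the 2 protein-coding genes with the nearest profile to each member. Sequence windows and gene positions came from GRCm39 and GENCODE vM39, in which 54749 of 55414 Ensembl identifiers were found. Python 3.11.15, pandas 2.3.3, Biopython 1.88 and matplotlib 3.10.9 were used. The alternatives were another pseudocount, filter, scaling, tool and set of groups, a replicate block, the fold threshold of the study, and each library left out in turn.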

Additional observations from a re-analysis of the deposited data

How the results depend on the processing

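Over 18 alternatives, the rises of Smad6, Smad7 and Smad9 and the fall of Smad5 against bFGF/EGF, and the falls of Smad3 in BMP4 against both groups, kept their direction and passed the test in all. The fitted log2 fold change of Smad6 against bFGF/EGF ranged from 4.70 to 11.87 with the pseudocount and tool, so only its lower bound is given. The count of Smad genes lower in bFGF/BMP4 against bFGF/EGF was 1 on the TPM scale and 1 with the replicate block (Smad2 lost, adjusted p 0.053 and 0.0589), 0 with a fold change of at least 2 as well, and 1 to 3 with each library left out. In BMP4 against bFGF/BMP4 it was 1 under quantile normalization and 1 with the replicate block (Smad9 lost, adjusted p 0.0503 and 0.0535), 0 with the fold threshold and 1 to 2 with each library left out, while the count of higher genes was 1 in limma-voom and 0 to 1 with each library left out. In BMP4 against bFGF/EGF the count of lower genes was 1 with the fold threshold. Deviations from the group means correlated at -0.212 to 0.222 between libraries of the same replicate number and at -0.248 to 0.187 between those of different numbers. With so few libraries these similar ranges cannot tell whether same-number libraries shared an isolation. The replicate block changed no other Smad call. Regulators lower in BMP4 against bFGF/BMP4 numbered 2 with only the groups compared and 1 to 5 with each library left out, those higher 2 to 5, and those lower in BMP4 against bFGF/EGF 7 to 11, and the cause was not tested. Uncalled changes near 0 turned sign: in BMP4 against bFGF/BMP4, Smad4 was at -0.069 (TPM scale), -0.009 (median-ratio scaling), -0.005 (quantile normalization) and -0.063 to 0.140 with libraries left out, and Smad5 at 0.000 (limma-voom) and -0.111 to 0.047 with libraries left out; in BMP4 against bFGF/EGF, Smad1 was at 0.020 (quantile normalization) and -0.088 to 0.075 with libraries left out. In limma-voom Smad2 passed in BMP4 against bFGF/EGF (adjusted p 0.0257). Quantile normalization moved the median log2 fold change of all genes in BMP4 against bFGF/EGF from 0.10 to -0.035. The depth limits Smad6 in bFGF/EGF to under 0.0557 FPKM. When a library is left out, its group has 2 libraries and the spread is pooled over all groups.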

Other observations

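In the bFGF/BMP4 group, replicate 1 held less of several genes that restrain TGF-β superfamily signaling than its 2 companions. Other regulators with such a role were highest in replicate 1, so these genes were mixed as a set. Among them were Tob1 (41.5 FPKM against 37.8 and 35.0), Stub1 (24.1 against 19.4 and 19.3) and Nedd4l (1.86 against 1.58 and 1.51). The target genes of BMP-type Smads were mixed as well. Chosen after their values were seen, Smad7 was at 10.8 FPKM against 25.4 and 18.6, Smad6 at 18.6 against 33.2 and 25.3, Skil at 6.17 against 21.4 and 19.6, Pmepa1 at 1.93 against 27.7 and 25.4, Ldlrad4 at 2.51 against 4.85 and 5.06, and Bambi, a pseudoreceptor gene, at 1.85 against 3.52 and 3.30. Of those targets, Id1 (186 FPKM against 137 and 105), Id3 (139 against 104 and 72.4), Atoh8 (60.1, with 48.2 in the lowest companion) and Msx1 (6.05 against 5.01 and 3.75) were highest in replicate 1, Id2 (230 against 232 and 156) and Id4 (53.4 against 59.7 and 46.3) lay between its companions, and Hey1 (47.0 against 95.3 and 87.4) and Msx2 (0.626 against 1.63 and 1.29) were lowest. Groups of 3 were not tested for outlying libraries. Without replicate 1, the log2 fold change of BMP4 against bFGF/BMP4 was 0.36 for Smad6 (adjusted p = 0.268, limma) and 0.22 for Smad7 (adjusted p = 0.556), and that of Smad3 was -0.99 (adjusted p = 0.00534).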
